A study of Homo sapiens with 54 samples.

Results

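CKI is an injection made from extracts of Sophora flavescens and Heterosmilax chinensis, and its complementary parts were compared head to head in MDA-MB-231, a cell line derived from a triple-negative breast cancer. One part, MOO, held only macrozamin (Mac), oxymatrine (Omt) and oxysophocarpine (Ospc). The other part, N_3, was CKI from which these 3 compounds had been taken out, and it kept the remaining alkaloids such as matrine and sophocarpine, the flavonoid trifolirhizin, adenine and the minor constituents. The 6 libraries compared were the 3 labelled MOO and the 3 labelled N_3 after 48 h in batch 1, of 54 libraries in the series. Both mixtures were given at the equivalent of 2 mg/ml CKI. Untreated cells (UT), for which no vehicle is named, and cells given whole CKI at 2 mg/ml were sampled in the same batch at the same time, with 3 libraries each. Further libraries of batch 1 at 48 h came from cells given OO (Omt and Ospc only) or N_2 (CKI without Omt and Ospc), and MOO and N_3 were also sampled after 24 h, again with 3 libraries per group. The submitters call the 3 libraries of a group biological replicates. Since all cultures are of this line, the p-values measure the spread between these cultures only and not between donors.

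Oxymatrine and oxysophocarpine are N-oxides of the quinolizidine alkaloids matrine and sophocarpine, and macrozamin is an azoxy glycoside. Proliferating cells copy their DNA with origin licensing factors and polymerases and divide with mitotic kinases, kinesins and checkpoint proteins, and the genes for both sets are switched on and off with the cell cycle. Cells under chemical stress raise metallothioneins through MTF1 when zinc or other metals are free, cytosolic chaperones through heat shock factors when proteins unfold, detoxifying enzymes through NRF2 and the aryl hydrocarbon receptor, and chaperones of the endoplasmic reticulum through ATF6 and XBP1.

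Total counts in the 6 libraries were between 21042031 and 23780547. Levels are given as CPM, the counts of a gene relative to the TMM-scaled size of its library, and differences as log2 fold changes, MOO over N_3, in which a positive value means more RNA in MOO. N_3 replicate 2 stood apart from the other N_3 libraries. Its counts differed from those of replicates 1 and 3 with a chi-square of 44.3 and 58.4 per gene, whereas replicates 1 and 3 gave 12.5 and the MOO pairs 2.37 to 6.96, and its TMM factor was 0.881. At 24 h N_3 replicate 2 stood further apart, with 108 and 87.1 per gene. Markers of the line were present in all groups (VIM, CD44, AXL, CAV1 and SPARC summed to 2210 to 2260 CPM with MOO and 1740 to 2030 CPM with N_3). Among 6 markers that were taken as low or absent in this line, KRT19 was not low and made up most of a sum of 538 to 619 CPM with MOO and 619 to 855 CPM with N_3. Fibroblast markers summed to 28.5 to 32.5 CPM with MOO and 35.6 to 39.6 CPM with N_3, with DCN at 0 in every library, and leukocyte markers, chiefly CD14, to 2.48 to 3.6 and 7.11 to 9.61 CPM. The part of these markers in the differences was not tested. In bulk RNA, fewer cells of one kind and less RNA per cell cannot be told apart, which holds for all of the differences below.

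MOO and N_3 differed across most of the transcriptome. Of 15513 genes tested, 9648 (62.2%) were differentially expressed (DE, adjusted p under 0.05 by Benjamini-Hochberg after the quasi-likelihood test of edgeR). Higher in MOO were 4907 genes (31.6%), and lower were 4741 (30.6%). Of these, 2609 differed by 1 or more on the log2 scale, 1348 upward and 1261 downward. The median log2 fold change of all genes was -0.00201. With the libraries scaled by their totals alone it was 0.131, and 63.4% of the DE genes were higher in MOO instead of 50.9%. Every MOO library lay above every N_3 library for 4880 genes (31.5%) and below for 4531 (29.2%). Against untreated cells, N_3 differed in 11030 genes (71.1%) and MOO in 7940 (51.2%), of which 4119 and 1712 were 1 or more apart on the log2 scale. Of the DE genes of MOO against UT, 50.2% were higher, and 60.5% with the libraries scaled by their totals alone. These comparisons share the untreated libraries, so their values are only set side by side.

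DE genes whose groups did not overlap and whose mean level reached 10 CPM were ranked by fold change. Most of the 12 with the largest positive values belong to cell division, namely MKI67, KIF20A, PLK1, BIRC5, TOP2A, KIF4A, CIT, KIF2C, NEK2 and PIMREG, with log2 fold changes of 3.63 to 4.86. The other two were DMBT1, which encodes a secreted scavenger glycoprotein of epithelia, and KISS1, the precursor of the kisspeptins. DMBT1 was at 44.1, 45.7 and 39.96 CPM in the MOO libraries and 0.776, 1.997 and 0.746 CPM in the N_3 libraries, a log2 fold change of 5.25 (SE 0.201, adjusted p = 1.28e-15). KISS1 was at 33.5, 32.05 and 32.9 CPM with MOO and 0.685, 0.864 and 1.798 CPM with N_3. Untreated cells held 27.9 ± 3.92 CPM (SD, n = 3) of DMBT1 and 21.6 ± 2.82 CPM (SD, n = 3) of KISS1, so that both genes lay somewhat above the untreated level with MOO and far under it with N_3.

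The 12 genes with the largest negative values were GADD45G, ARC, S100P, IL1B, AKR1C1, HSPA7, SNAI1, IL1A, HSPA6, MT1F, ANGPTL4 and AKR1C2. They include stress and heat shock genes, interleukins and detoxifying enzymes. GADD45G, a stress gene linked to growth arrest, was at 0.597, 0.974 and 0.911 CPM with MOO and 71.9, 25.4 and 64.7 CPM with N_3, a log2 fold change of -6.03 (SE 0.333, adjusted p = 7.95e-13). ARC, an immediate early gene best known from neurons, was at 1.62, 1.101 and 0.651 CPM with MOO and 82.5, 58.3 and 61.5 CPM with N_3. S100P, a calcium-binding protein, was at 0.726, 0.804 and 0.651 and 40.3, 23.3 and 34.9 CPM in the same order. For these genes N_3 replicate 2 was the lowest of its group, yet lay far above every MOO library. Untreated cells held 0.9995, 0.694 and 0.753 CPM of the 3 genes, close to the MOO level. AKR1C1 and AKR1C2, HSPA6 and HSPA7, and the MT1 genes are near-identical copies among which reads may be split, so their single values are uncertain.

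**Figure D1:**
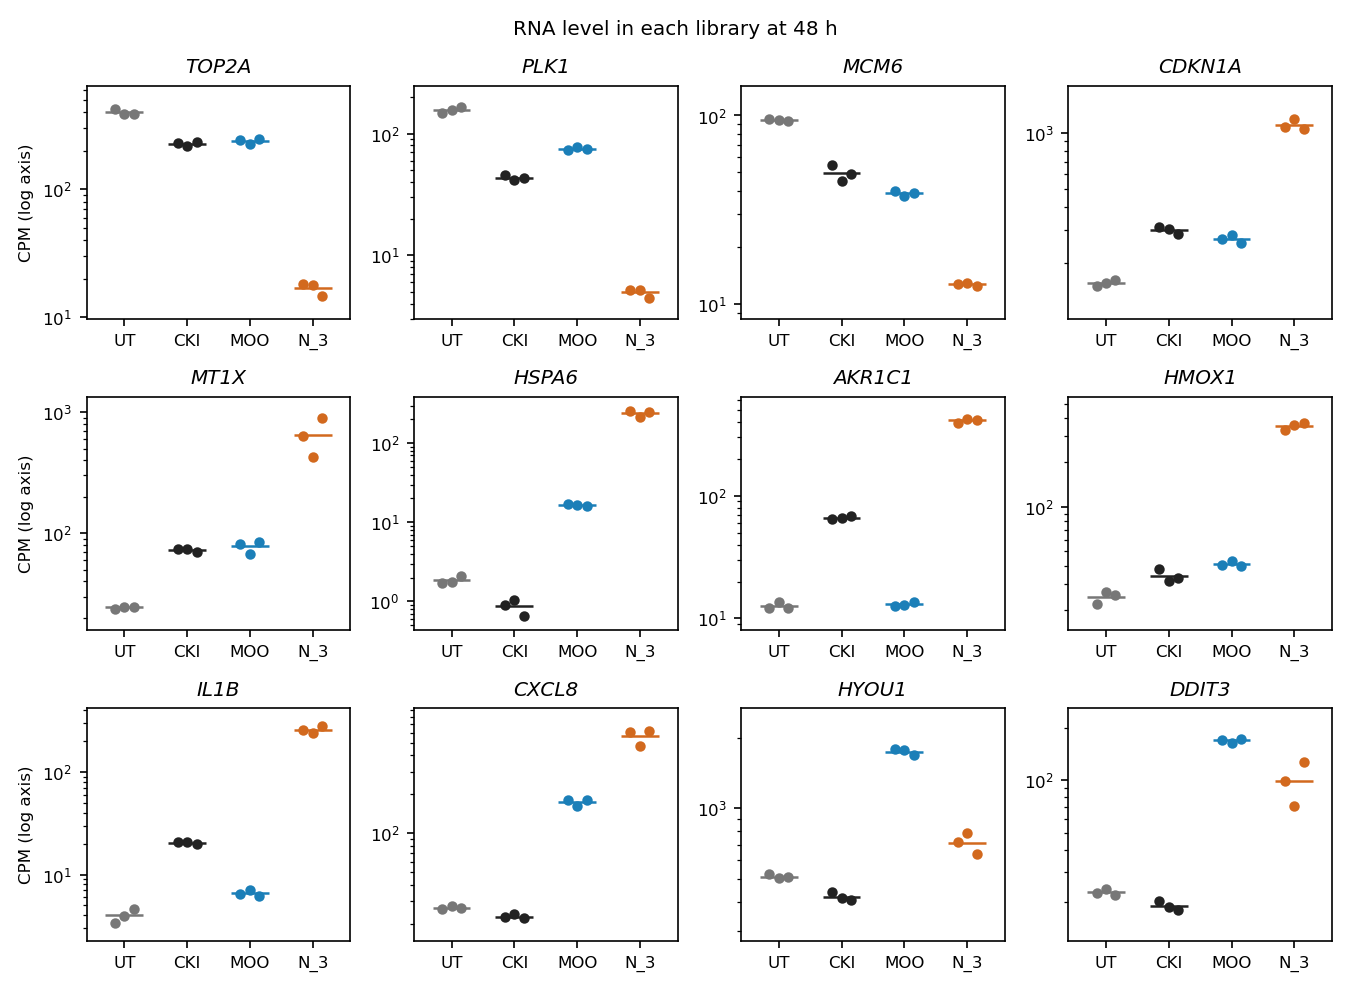
RNA levels of 12 genes in CPM (vertical log axes, each with its own range) in the 3 libraries each of UT, CKI, MOO and N_3 at 48 h. Points are libraries and bars are group means. TOP2A, PLK1 and MCM6 are lowest in the 3 N_3 libraries, CDKN1A, MT1X, HSPA6, AKR1C1, HMOX1, IL1B and CXCL8 are highest there, and HYOU1 and DDIT3 are highest in the 3 MOO libraries.

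Of 25 genes for mitosis and cytokinesis, 25 were DE and 25 of these were higher in MOO, with a median log2 fold change of 2.13 beside -0.00201 over all genes. Over all genes, 31.6% were higher in MOO and 30.6% lower, the shares beside which this and the later list counts at 48 h stand. The difference exceeded 1 on the log2 scale for 22 of them. PLK1, a kinase that drives entry into and passage through mitosis, was at 73.7, 78.2 and 74.2 CPM in the MOO libraries and at 5.16, 5.18 and 4.47 CPM in the N_3 libraries. Its log2 fold change was 3.94 (SE 0.0819, adjusted p = 6.28e-20). TOP2A, the topoisomerase that untangles chromosomes, was at 243, 224 and 246 CPM with MOO and 18.3, 17.8 and 14.6 CPM with N_3, 14.1-fold apart on the fitted scale. The groups did not overlap for either gene. MKI67, which codes for the Ki-67 antigen of cycling cells, was at 168, 147 and 175 and 6.53, 4.96 and 5.26 CPM in the same order. Smaller differences were measured for ECT2, a regulator of cytokinesis (0.68), CDC20, an activator of the anaphase-promoting complex (0.80), and the checkpoint kinase TTK (0.87). Both mixtures lay under untreated cells. Against UT, 25 of the 25 genes were lower with MOO (25.5% of all genes were lower) and 25 were lower with N_3 (35.3% of all genes), with medians of -0.762 and -2.86.

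Promoters of cell cycle genes often carry the cell cycle homology region (CHR), to which the DREAM complex binds. The letters TTTGAA were searched on both strands in the 250 bases before the transcription start in the RefSeq table (GRCh38.p14), which holds 35116 entries for 27305 genes. A match was present in 13.3% of all entries and in 13 of the 23 entries (56.5%) of the 20 mitosis genes found there. A match describes letters only and was not tested as a binding site. The promoters of PLK1, TOP2A, MKI67 and KIF4A, all among the 12 genes with the largest positive values, are shown 5′ to 3′ with the matches on either strand in capitals, since they hold these letters ahead of genes that differed by more than 3.5 on the log2 scale.
PLK1 (chr16:23678639-23678888, plus strand): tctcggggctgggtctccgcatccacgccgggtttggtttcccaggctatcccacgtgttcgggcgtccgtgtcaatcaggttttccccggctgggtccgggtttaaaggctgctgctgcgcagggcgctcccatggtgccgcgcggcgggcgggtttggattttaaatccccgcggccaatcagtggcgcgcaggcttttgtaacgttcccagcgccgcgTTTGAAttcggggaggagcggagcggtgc
TOP2A (chr17:40417897-40418146, minus strand): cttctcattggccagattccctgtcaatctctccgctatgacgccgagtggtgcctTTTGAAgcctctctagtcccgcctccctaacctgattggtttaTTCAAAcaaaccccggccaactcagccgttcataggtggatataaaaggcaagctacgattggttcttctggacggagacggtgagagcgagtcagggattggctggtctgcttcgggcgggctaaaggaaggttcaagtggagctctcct
MKI67 (chr10:128126424-128126673, minus strand): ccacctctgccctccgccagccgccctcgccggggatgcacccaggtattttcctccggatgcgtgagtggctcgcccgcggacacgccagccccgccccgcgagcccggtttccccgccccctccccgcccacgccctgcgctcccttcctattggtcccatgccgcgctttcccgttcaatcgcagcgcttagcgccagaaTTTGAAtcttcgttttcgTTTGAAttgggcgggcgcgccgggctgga
KIF4A (chrX:70289854-70290103, plus strand): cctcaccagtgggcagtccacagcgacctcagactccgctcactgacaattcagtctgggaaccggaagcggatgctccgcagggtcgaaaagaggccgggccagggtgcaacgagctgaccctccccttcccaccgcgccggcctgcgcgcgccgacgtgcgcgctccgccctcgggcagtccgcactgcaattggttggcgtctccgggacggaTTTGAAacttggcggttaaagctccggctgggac
The match of PLK1 began 29 bases before the start and that of KIF4A 34 bases before it, while TOP2A had 2 matches that began 151 and 194 bases before the start.

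The 32 genes for DNA replication and nucleotide supply were all DE and higher in MOO, 32 of 32, with a median log2 fold change of 1.51. The difference was over 1 for 25 of them. MCM10, a factor needed to fire origins, had a log2 fold change of 4.27 (SE 0.156, adjusted p = 5.68e-16), and its levels were 16.1, 15.2 and 15.6 CPM with MOO and 0.639, 0.809 and 0.965 CPM with N_3. GINS2 of the replicative helicase (3.82), the ribonucleotide reductase subunit RRM2 (3.27) and thymidylate synthase, TYMS (3.07), followed. MCM6, a subunit of the helicase core, was at 39.6, 37.5 and 38.7 CPM with MOO and 12.8, 12.9 and 12.5 CPM with N_3, a log2 fold change of 1.60. Untreated cells held 94.6 ± 0.879 CPM (SD, n = 3) and cells with whole CKI 49.4 ± 4.7 CPM (SD, n = 3), so that N_3 held the lowest and UT the highest level. Smallest were the differences of MCM2 (0.42) and RFC3 (0.43). Against UT, 31 of the 32 genes were lower with MOO (25.5% of all genes were lower) and 32 with N_3 (35.3%), with medians of -0.932 and -2.56.

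E2F factors act on many of these promoters. One form of the site searched was TTTGGCG. A further form was TTTCCCG. The letters TTCCCGC made up another, and TTGGCGC was the last, so that forms can overlap. At least one of them was found on either strand in 10.7% of all entries and in 22 of 36 entries (61.1%) of the 28 replication genes in the table. The MCM6 promoter is shown as an example, with 4 overlapping matches in capitals that form 2 runs.
MCM6 (chr2:135876444-135876693, minus strand): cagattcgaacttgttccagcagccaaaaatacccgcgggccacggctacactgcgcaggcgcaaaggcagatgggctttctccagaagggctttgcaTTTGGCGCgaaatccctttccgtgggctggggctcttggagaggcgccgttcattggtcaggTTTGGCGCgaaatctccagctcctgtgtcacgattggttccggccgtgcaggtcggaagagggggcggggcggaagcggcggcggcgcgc

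Genes of the G1 phase moved both ways. Of 19 tested, 10 were higher and 4 lower in MOO. CCNE2, a cyclin that starts S phase, was higher (2.98), as were E2F2 (2.91), the pocket protein RBL1 (1.86) and CDK2 (1.44). The mean level of E2F2 in the compared libraries was under 1 CPM, so its value rests on few counts. The 4 that were lower were CDKN1C (-3.38), CDKN1A (-2.03), CCND2 (-1.71) and CDK6 (-0.26). CDKN1A, the inhibitor p21, was at 269, 283 and 257 CPM with MOO and 1070, 1188 and 1046 CPM with N_3, 4.08-fold more in N_3. The inhibitor p57, CDKN1C, was at 11.3, 12.9 and 12.9 and 155, 104 and 129 CPM, and untreated cells held 60.6 ± 11.1 CPM (SD, n = 3), between the groups. No overlap between MOO and N_3 was seen for either inhibitor. Another inhibitor of the list, CDKN2C, went the other way. Against UT it changed by -1.689 with MOO and by -3.353 with N_3, so it was higher in MOO. CDKN2B had too few counts for a test.

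Among 15 p53 target genes, 3 were higher in MOO and 8 lower. GDF15, a stress-induced cytokine of the TGF-beta family, differed most. It was at 168, 185 and 167 CPM with MOO and 1606, 1380 and 1285 CPM with N_3, a log2 fold change of -3.04 (SE 0.0897, adjusted p = 1.57e-17), beside 90.8 ± 5.67 CPM (SD, n = 3) in UT. Without GDF15 and CDKN1A the values were smaller. BBC3, which encodes the cell death activator PUMA, had a log2 fold change of -0.97, the antiproliferative BTG2 of 1.08, MDM2 of -0.53 and RRM2B of 0.75. Of 19 apoptosis regulators, 9 were lower in MOO, 3 higher (5 without N_3 replicate 3) and 7 not DE. The lower ones included death activators (BIK -1.53, BAK1 -1.07) and the protective MCL1 (-0.43). The 3 that were higher were the death inhibitors BCL2 (1.27) and BIRC2 (0.31) and the caspase activator APAF1 (0.28).

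Metallothioneins, small proteins that bind zinc and copper, gave the most negative median of the 30 lists, -2.62. Of 8 genes tested from this list, 7 were lower in MOO and none was higher. MT1X was at 81.3, 68 and 85.1 CPM in the MOO libraries and at 638, 426 and 887 CPM in the N_3 libraries, a log2 fold change of -3.06 (SE 0.164, adjusted p = 5.01e-13). MT2A was at 725, 598 and 699.9 CPM with MOO and 2793, 1262 and 3742 CPM with N_3. SLC30A1, which exports zinc across the plasma membrane, was at 20.1, 21 and 19.8 CPM with MOO and 174, 158 and 129.5 CPM with N_3. Within N_3, replicate 2 was lowest for both metallothioneins and replicate 3 highest, while replicate 1 was highest for SLC30A1. MTF1, the metal-responsive factor itself, was lower in MOO by less (-0.76). MT1E was also lower (-2.31). MT1A did not pass the test, at 1.54, 1.14 and 1.302 CPM with MOO and 0.456, 1.19 and 1.75 CPM with N_3, and MT1G and MT1H had too few counts. Against UT, MT1X had a log2 fold change of 1.68 with MOO and 4.74 with N_3, and 4 of the 8 were higher with MOO (25.7% of all genes were higher) and 7 with N_3 (35.8%).

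Metal response elements, to which MTF1 binds, were searched as TGCACNC and TGCGCNC on both strands of the same windows. Matches were found in 24.8% of all entries, and in 4 of 5 entries of the metal genes that the table holds. The promoters of MT2A, with 7 matches, and MT1X, with 4, are shown with the matches in capitals because their windows hold several of them. These genes were chosen after their values were seen.
MT2A (chr16:56608334-56608583, plus strand): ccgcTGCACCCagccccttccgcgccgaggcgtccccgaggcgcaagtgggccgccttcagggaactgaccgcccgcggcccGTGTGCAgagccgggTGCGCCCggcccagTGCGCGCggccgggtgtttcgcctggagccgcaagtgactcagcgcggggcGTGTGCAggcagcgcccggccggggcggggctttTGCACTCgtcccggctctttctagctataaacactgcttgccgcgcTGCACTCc
MT1X (chr16:56682220-56682469, plus strand): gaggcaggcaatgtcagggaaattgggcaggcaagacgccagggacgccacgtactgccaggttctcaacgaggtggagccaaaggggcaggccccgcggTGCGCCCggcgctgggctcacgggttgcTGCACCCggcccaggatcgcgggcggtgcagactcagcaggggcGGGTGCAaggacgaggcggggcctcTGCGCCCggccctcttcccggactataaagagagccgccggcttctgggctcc

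None of 14 heat shock chaperone genes was higher in MOO and 11 were lower, with a median of -0.555. HSPA1A, an inducible HSP70, was at 953, 1092 and 1002 CPM with MOO and 4359, 4177 and 4170 CPM with N_3, a log2 fold change of -2.06 (SE 0.0923, adjusted p = 2.08e-14). HSPA1B (-2.01) is a near-identical copy of HSPA1A, and reads may be split between them. HSPH1 (-0.78), HSPA9 of the mitochondria (-0.74) and DNAJB1 (-0.69) were lower by less. HSP90AA1 (0.033), HSP90AB1 (-0.015) and HSPD1 (-0.14) did not pass the test. HSPA6, a strictly inducible HSP70 and no member of this list, was at 1.73, 1.75 and 2.11 CPM in UT, 16.9, 16.3 and 15.9 CPM with MOO and 256, 218 and 246 CPM with N_3. No library of any of these groups overlapped with another group. In the HSPA6 promoter the letters GAANNTTC, part of a heat shock element, occur 2 times, as they do at least once in 5.78% of all entries and in 9 of 20 entries (45%) of the chaperone list.
HSPA6 (chr1:161524290-161524539, plus strand): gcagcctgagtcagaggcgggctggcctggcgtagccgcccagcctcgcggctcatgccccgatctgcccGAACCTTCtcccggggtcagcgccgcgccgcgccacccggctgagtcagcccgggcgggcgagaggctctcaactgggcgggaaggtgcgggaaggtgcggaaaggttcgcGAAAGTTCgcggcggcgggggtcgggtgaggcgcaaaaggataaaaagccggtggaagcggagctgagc

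NRF2 targets were lower in MOO for 12 of 21 genes and higher for 2, SRXN1 (0.30) and OSGIN1 (0.65). Without N_3 replicate 2, 4 were higher. The aldo-keto reductase AKR1C1 differed most, at 12.7, 12.9 and 13.6 CPM with MOO and 394, 427 and 415 CPM with N_3, a log2 fold change of -4.98 (SE 0.0847, adjusted p = 2.38e-21). In untreated cells it was at 12.6 ± 0.842 CPM (SD, n = 3), the MOO level, and with whole CKI at 66.4 ± 1.85 CPM (SD, n = 3). The copy AKR1C2 had a log2 fold change of -3.43. Haem oxygenase, HMOX1, was at 40.3, 43.1 and 39.7 CPM with MOO and 334, 359.7 and 369 CPM with N_3. The heavy chain of the iron store ferritin, FTH1, had a log2 fold change of -2.06 (SE 0.0954, adjusted p = 3.5e-14). In glutathione synthesis GCLM was lower in MOO (-0.98), while GCLC (-0.0086) was not DE.

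Targets of the aryl hydrocarbon receptor were lower in MOO for 7 of 8 genes tested. CYP1A1, which oxidises polycyclic compounds, was at 3.93, 6.27 and 6.33 CPM with MOO and 13.7, 18.02 and 14.6 CPM with N_3, a log2 fold change of -1.48 (SE 0.137, adjusted p = 4.4e-09). Whole CKI gave 62.9 ± 1.24 CPM (SD, n = 3) and UT 1.22 ± 0.141 CPM (SD, n = 3), so the levels were in the order UT, MOO, N_3, CKI. The receptor's repressor AHRR (-1.78), TIPARP (-1.02) and the receptor AHR (-0.73) were also lower in MOO. Against UT, 4 of the 8 were higher with MOO (25.7% of all genes were higher) and 6 with N_3 (35.8%).

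Chaperones of the endoplasmic reticulum and factors of the unfolded protein response were mostly higher in MOO. Of 17 genes, 15 were higher in MOO and 1, CANX, was lower (-0.25), with a median log2 fold change of 0.794. Without N_3 replicate 1 or MOO replicate 2, 2 were lower. HYOU1 was at 1788, 1770 and 1683 CPM with MOO and 718, 785 and 637 CPM with N_3, a log2 fold change of 1.29 (SE 0.0726, adjusted p = 1.06e-12). HSPA5, the main HSP70 of this compartment, was at 7000, 6600 and 6679 CPM with MOO and 3864, 3895 and 3634 CPM with N_3. Both genes were above UT in both groups, since UT held 511 ± 10.3 CPM (SD, n = 3) of HYOU1 and 1302 ± 41 CPM (SD, n = 3) of HSPA5. The disulfide isomerase PDIA4 (1.16), SDF2L1 (1.58) and CRELD2 (1.83) were among the larger differences. XBP1 had a log2 fold change of -0.13 and was not DE. Against UT, 17 of 17 were higher with MOO (25.7% of all genes were higher), and with N_3 11 were higher (35.8%) and 1 lower (35.3%).

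ATF4 and CHOP targets, which answer amino acid shortage and protein stress, were lower in MOO for 14 of 21 genes and higher for 3, with a median of -0.578. CHOP itself, DDIT3, was higher in MOO. It was at 170, 164 and 173 CPM with MOO and 98.8, 71.1 and 128 CPM with N_3, a log2 fold change of 0.77 (SE 0.118, adjusted p = 7.27e-06), with a wide spread among the N_3 libraries, replicate 2 being lowest. SLC3A2, a chain of amino acid transporters, was at 712, 743 and 681 CPM with MOO and 2061, 2217 and 1896 CPM with N_3. The transcription factor CEBPB (-1.30), CHAC1, which breaks down glutathione (-1.03), and ATF4 (-0.43) were lower as well. Against UT, 19 of the 21 were higher with MOO (25.7% of all genes were higher) and 17 with N_3 (35.8%). The medians were 1.25 and 2.12, so that MOO lay between UT and N_3 on this list. Aminoacyl-tRNA synthetases, many of which ATF4 induces, split into 6 higher and 11 lower of 20, from AARS (-0.95) and GARS (-0.68) to DARS (0.77) and FARSB (0.88).

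**Figure D2:**
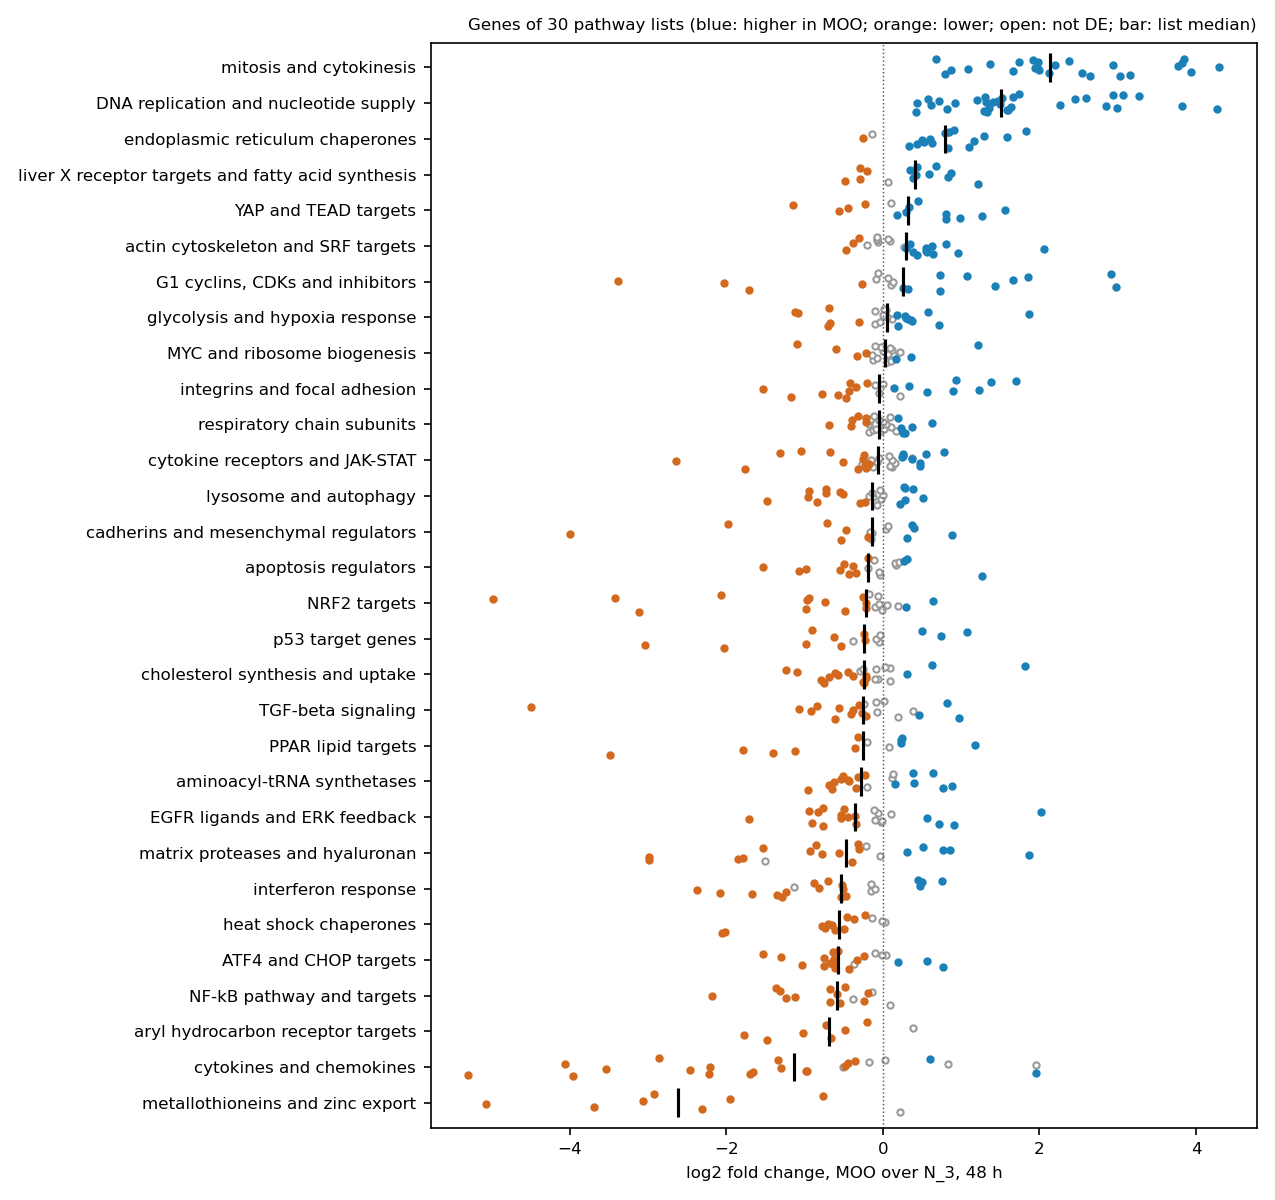
Log2 fold change MOO over N_3 at 48 h (horizontal axis) of the genes tested in 30 pathway lists (vertical axis, ordered by list median). Each point is a gene, blue where higher in MOO, orange where lower and open where not DE, and the black bars are list medians, from -2.62 for metallothioneins to 2.13 for mitosis and cytokinesis.

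In lipid metabolism, genes of cholesterol synthesis and uptake were lower in MOO for 13 of 24 and higher for 3 (5 without N_3 replicate 2). MSMO1 (-1.10), EBP (-1.23) and MVD (-0.79), which are enzymes of the pathway, were lower. STARD4, a cytosolic sterol carrier, was higher (0.63). Liver X receptor targets and genes of fatty acid synthesis were higher in MOO for 9 of 14 and lower for 4 (2 without N_3 replicate 2). The cholesterol exporter ABCA1 led them with 1.22 (SE 0.11, adjusted p = 2.78e-09), from 108, 100.2 and 106 CPM with MOO and 54.5, 36.5 and 43.8 CPM with N_3, and with whole CKI it was far under both, at 10.4 ± 1.86 CPM (SD, n = 3). The transcription factor SREBF1 (0.83), ACACA, which commits carbon to fatty acids (0.87), and LPCAT3, which remodels phospholipids (0.69), were higher too. PPAR lipid targets split into 4 higher and 6 lower of 12, and 2 were higher when N_3 replicate 1, N_3 replicate 3, MOO replicate 1 or MOO replicate 2 was left out. ANGPTL4, an inhibitor of lipoprotein lipase, was at 4.22, 4.45 and 3.47 CPM with MOO and 48.1, 45.5 and 42.4 CPM with N_3, and whole CKI gave 51.9 ± 3.07 CPM (SD, n = 3), near N_3. PDK4, which restrains glucose oxidation (-1.40), and PLIN2, which coats lipid droplets (-1.78), were lower in MOO, and HADHA of fatty acid oxidation (1.17) and the receptor PPARD (0.25) were higher. The call of PPARD was lost without N_3 replicate 1 (adjusted p = 0.133) or 3 (0.108) or MOO replicate 2 (0.102).

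Of 24 cytokine and chemokine genes tested, 17 were lower in MOO and 2 higher, with a median of -1.14. IL1B was at 6.401, 7.11 and 6.16 CPM with MOO and 255, 237 and 279.6 CPM with N_3, a log2 fold change of -5.29 (SE 0.102, adjusted p = 1.91e-20). IL1A was at 11.3, 8.64 and 8.55 CPM with MOO and 141, 129 and 172 CPM with N_3. IL6 was at 30.6, 29.3 and 30.2 and 147, 96.9 and 176 CPM in the same order. All 3 interleukins were higher in every N_3 library than in any MOO library. The neutrophil chemoattractant CXCL8 was less far apart, at 181, 164 and 179.8 CPM with MOO and 612, 474 and 620.4 CPM with N_3, and both lay above UT (26.7 ± 0.763 CPM, SD, n = 3) and whole CKI (22.7 ± 0.839 CPM, SD, n = 3). The 2 that were higher in MOO were TNFSF10, the death ligand TRAIL (0.61), and IL11, which was at 76.9, 86.5 and 82.4 CPM with MOO and 20.7, 18.6 and 23.6 CPM with N_3. CSF3, the granulocyte growth factor, was lower in MOO (-3.54), and the chemokine CCL20 had a mean of 0.115 CPM with MOO and 1.99 CPM with N_3. Against UT, 16 of the 24 were higher with MOO (25.7% of all genes were higher) and 19 with N_3 (35.8%).

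Receptors and JAK-STAT genes showed no common direction, with 9 higher and 12 lower of 32, beside 31.6% and 30.6% of all genes. The larger values were negative, for the TNF receptor TNFRSF1B (-2.64), IL6R (-1.76) and the feedback inhibitors SOCS1 (-1.31) and CISH (-1.05), while STAT3 was slightly higher in MOO (0.25, a call lost without N_3 replicate 3 or MOO replicate 3 at adjusted p = 0.0797 and 0.0633) and JAK1 was not DE (-0.052, and 0.080 with the libraries scaled by their totals). In the NF-kB pathway 12 of 15 genes were lower in MOO and none higher. They were inhibitors that NF-kB itself induces (TNFAIP3 -2.18, NFKBIA -1.24, NFKBIE -1.12) and targets such as TRAF1 (-1.31) and IER3 (-1.36), together with RELA (-0.68). NFKB1 had a log2 fold change of 0.097 and was not DE, but was higher in MOO without N_3 replicate 2 (0.18, adjusted p = 0.0255). TNFAIP3, or A20, was at 15.4, 13.97 and 14.2 CPM with MOO and 70.02, 65.1 and 62.8 CPM with N_3.

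Interferon response genes were lower in MOO for 13 of 21 and higher for 4, with a median of -0.539. OASL, an antiviral protein, was at 6.49, 6.35 and 5.86 CPM with MOO and 29.1, 34.6 and 33.03 CPM with N_3, a log2 fold change of -2.37 (SE 0.106, adjusted p = 2.06e-14). Here N_3 was the group near untreated cells, which held 41.8 ± 4.65 CPM (SD, n = 3), and whole CKI, at 8.11 ± 0.454 CPM (SD, n = 3), was near MOO. ISG15 was at 36.96, 35.7 and 38.2 CPM with MOO and 92.8, 82.6 and 107 CPM with N_3, beside 97.6 ± 8.62 CPM (SD, n = 3) in UT. MX1 (-1.67) and OAS1 (-2.08) were lower in MOO too, whereas IFITM2 (0.76) and BST2 (0.50) were higher. Against UT, 20 of the 21 were lower with MOO (25.5% of all genes were lower) and 17 with N_3 (35.3%), with medians of -1.36 and -0.535.

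Genes of the actin cytoskeleton, which the study followed for their part in migration, were higher in MOO for 12 of 23 and lower for 3, with a median of 0.291. Against UT, 11 of the 23 were lower with MOO (25.5% of all genes were lower) and 14 with N_3 (35.3%). Higher than in UT were 3 with MOO (25.7% of all genes) and 2 with N_3 (35.8%), and the medians were -0.215 and -0.521. ACTA2, the smooth muscle actin, was higher in MOO than in N_3 (0.96). Vinculin, VCL, had a log2 fold change of 0.81 (SE 0.0782, adjusted p = 8.52e-09), ACTG1 of 0.64 and TPM1 of 0.62, and SRF was not DE (0.086), though it was without N_3 replicate 2 (0.24, adjusted p = 0.00159). Integrins and focal adhesion genes split into 8 higher and 9 lower of 21. CAV1, which forms caveolae, had the largest value of this list, at 295, 280.4 and 296 CPM with MOO and 82.3, 92.98 and 92.9 CPM with N_3, and the adhesion adaptor PARVA (1.38) and ITGB5 (1.23) were higher, while ITGB8 (-1.53) and ITGA2 (-1.17) were lower. Against UT, CAV1 changed by -1.285 with MOO and -2.985 with N_3. Of the 21 genes, 11 were lower and 5 higher than in UT with MOO (25.5% and 25.7% of all genes). With N_3, 10 were lower and 7 higher (35.3% and 35.8% of all genes). YAP and TEAD targets were higher in MOO for 9 of 14 and lower for 4, led by CRIM1 (1.56), ANKRD1 (1.26) and CTGF (0.99), while the vasoconstrictor EDN1 was lower (-1.14). YAP1 itself was slightly lower (-0.23), but not without N_3 replicate 2 (-0.14, adjusted p = 0.0593).

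TGF-beta signaling genes were lower in MOO for 11 of 20 and higher for 3. ID2, an inhibitor of differentiation factors, was at 0.811, 0.466 and 0.651 CPM with MOO and 17.4, 8.26 and 17.7 CPM with N_3, a log2 fold change of -4.49 (SE 0.293, adjusted p = 1.39e-11). The inhibitors of the pathway SKIL (-1.07) and SMAD7 (-0.92) were lower, as was the ligand TGFB1 (-0.61), and the ligand TGFB2 was higher (0.97). Among cadherins and mesenchymal regulators, 4 of 15 were higher and 6 lower. SNAI1, a repressor of epithelial genes, was at 1.49, 1.44 and 2.3 CPM with MOO and 35.05, 18.9 and 29.2 CPM with N_3, with UT between them at 4.05 ± 0.217 CPM (SD, n = 3). SNAI2 (-0.13) and ZEB1 (-0.16), which act like it, were not DE, the tight junction gene CLDN1 (-1.97) and the adhesion molecule EPCAM (-0.71) were lower in MOO and fibronectin, FN1, was higher (0.88). Genes for matrix proteases and hyaluronan were lower in MOO for 12 of 20 and higher for 5. PLAU, the urokinase that starts plasmin formation, was at 357, 348 and 333 CPM with MOO and 102, 82.4 and 99.7 CPM with N_3, while its receptor PLAUR had a log2 fold change of -0.78, ADAMTS1, a protease of proteoglycans, of -1.53, the inhibitor TIMP3 of -0.92 and the hyaluronan synthase HAS3 of -0.86.

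EGFR ligands and ERK feedback genes were lower in MOO for 12 of 22 and higher for 4. Of all genes, 30.6% were lower and 31.6% higher, which holds beside every list of this paragraph. EGR1, an immediate early factor, was at 246, 259 and 239.6 CPM with MOO and 71.5, 50.7 and 61.8 CPM with N_3, and UT held 52.4 ± 6.6 CPM (SD, n = 3), near the N_3 level. The phosphatase DUSP5 (-1.71), FOSL1 (-0.94) and EGFR (-0.76) were lower in MOO, and ERBB2 was higher (0.91). MYC and genes of ribosome biogenesis differed little, with 3 higher and 4 lower of 20. Without N_3 replicate 2 the counts were 9 and 8, and without N_3 replicate 3, 2 were lower. UTP20, a ribosome assembly factor, was higher in MOO (1.21), as was NOP58 (0.36), and PPAN (-1.10) and the RNA polymerase I subunit POLR1B (-0.60) were lower. MYC was at 368, 423 and 357 CPM with MOO and 386, 314 and 402 CPM with N_3, with overlapping groups and a log2 fold change of 0.059 (SE 0.0853, adjusted p = 0.561), which was -0.039 without N_3 replicate 2. Respiratory chain subunits were 6 higher and 6 lower of 27, or 22.2% each way, under the shares of all genes. Without N_3 replicate 2, 11 were lower, and without MOO replicate 1, 2 were higher. The differences of all 27 stayed between -0.68 for SDHB and 0.63 for UQCRC2. Glycolysis and hypoxia genes split into 10 higher and 6 lower of 24, among them the carbonic anhydrase CA9 (1.86), GPI (0.72), VEGFA (-1.09) and ADM (-1.13), and lysosome and autophagy genes into 6 higher and 10 lower of 23, with the proteases CTSL (-1.47) and CTSD (-0.83), the glycosidase GLA (-0.95) and GABARAPL1 of the autophagosome (-0.94) lower in MOO.

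For proteins that the study followed by other assays, the RNA differed modestly. ACTB was at 3342, 3512 and 3449 CPM with MOO and 2422, 2553 and 2662 CPM with N_3, a log2 fold change of 0.43 (SE 0.0652, adjusted p = 5.67e-06). CCND1, or cyclin D1, was at 439.7, 467 and 471 CPM with MOO and 247, 358 and 222 CPM with N_3, with replicate 2 highest in N_3. Both genes were under UT in both groups, where they were at 6181 and 793 CPM. AKT1 was higher in MOO (0.92), and AKT2 had a log2 fold change of -0.20 (SE 0.0879, adjusted p = 0.0482). Without N_3 replicate 2 the adjusted p of AKT2 was 0.628, and its call was also lost without MOO replicate 1 (0.108) or 3 (0.0718). CTNNB1, which encodes beta-catenin, was at 265, 259.5 and 269 CPM with MOO and 234, 323 and 212 CPM with N_3, so that replicate 2 of N_3 lay above and the others under every MOO library, and its log2 fold change of 0.045 did not pass the test (adjusted p = 0.707). Without N_3 replicate 2 CTNNB1 was higher in MOO by 0.25 on the log2 scale (adjusted p = 0.000761), and without N_3 replicate 1 or 3 the value was negative.

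The same contrast was examined after 24 h in other libraries. There, 5587 of 15191 genes (36.8%) were DE, 2743 of them higher in MOO (18.1%) and 2844 lower (18.7%), with a biological coefficient of variation of 0.175 beside 0.0763 at 48 h. N_3 replicate 2 at 24 h lay between the groups for many genes, as for AKR1C1, which was at 301, 16.1 and 254 CPM in N_3 and 6.65, 7.05 and 6.24 CPM in MOO, and for MKI67, at 14.01, 90.7 and 15.3 CPM in N_3 and 149, 166 and 184 CPM in MOO. Without that library 6419 genes were DE. The mitosis list was higher in MOO for 25 of 25 genes and the replication list for 32 of 32, with medians of 1.63 and 1.59, and without that library the counts were 25 and 32 with medians of 2.07 and 1.99. Metallothionein genes were lower for 7 of 8, heat shock chaperones for 9 of 14 and cytokines for 10 of 23, counts that were 7, 9 and 10 without it as well. Of the 12 genes with the largest positive values at 48 h, the log2 fold changes at 24 h were between 1.64 for NEK2 and 2.77 for DMBT1, and of the 12 with the largest negative values between -6.42 for HSPA6 and -1.90 for ANGPTL4.

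Chaperones of the endoplasmic reticulum differed between the times. At 24 h 1 of 17 was higher in MOO and 8 were lower (2 and 8 without N_3 replicate 2), with a median of -0.291. HSPA5 was at 1296, 1258 and 1312 CPM with MOO and 3770, 2155 and 3901 CPM with N_3 at 24 h, a log2 fold change of -1.35 (SE 0.176, adjusted p = 3.48e-05). HYOU1 was at 476, 469 and 499 and 624, 570 and 643 CPM at that time. Thus every N_3 library lay above every MOO library at 24 h and every MOO library above every N_3 library at 48 h for both genes. The difference between the times was tested in 12 libraries, and 294 of 14966 genes (1.96%) passed, 202 with a larger value at 48 h (1.35%) and 92 with a smaller one (0.615%). From the chaperone list 12 of 17 passed, all with a larger value at 48 h, and without N_3 replicate 2 at 24 h 13 passed. The NF-kB list had 6 of 15 genes with a smaller value at 48 h (10 without that library) and the mitosis list 4 of 25 with a larger one (9 larger and 1 smaller without it). Other lists depended more on that library. Cholesterol synthesis and uptake had 3 of 24 genes with a smaller value at 48 h, and 16 without it. DNA replication had 1 of 32 with a smaller value, and without it 12 smaller and 3 larger. None of 24 glycolysis and hypoxia genes passed, and without it 8 had a smaller value. For HYOU1 the difference between the times was 1.63 (SE 0.143, adjusted p = 0.000223) on the log2 scale, and for HSPA5 2.17 (SE 0.248, adjusted p = 0.00143). Without N_3 replicate 2 at 24 h these values were 1.64 and 2.36. Of the 294, 68.7% had the larger value at 48 h, and with the libraries scaled by their totals alone 89.8% of 529 did. The count depended on single libraries. It was 1548 without N_3 replicate 2 at 24 h and 73 without MOO replicate 1 at 48 h, and it was between 84 and 172 without N_3 replicate 3, MOO replicate 1, MOO replicate 2 or MOO replicate 3 at 24 h or without N_3 replicate 1, MOO replicate 2 or MOO replicate 3 at 48 h. Genes with the largest differences were SPC25 (2.98), RAD51AP1 (2.66), DMBT1 (2.46) and KISS1 (2.42) upward, and ANGPTL4 (-1.59), PLCXD1 (-1.37), CDKN1A (-1.33) and EBP (-1.29) downward. For SPC25 of the kinetochore the value was 2.09 without N_3 replicate 2 at 24 h.

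**Figure D3:**
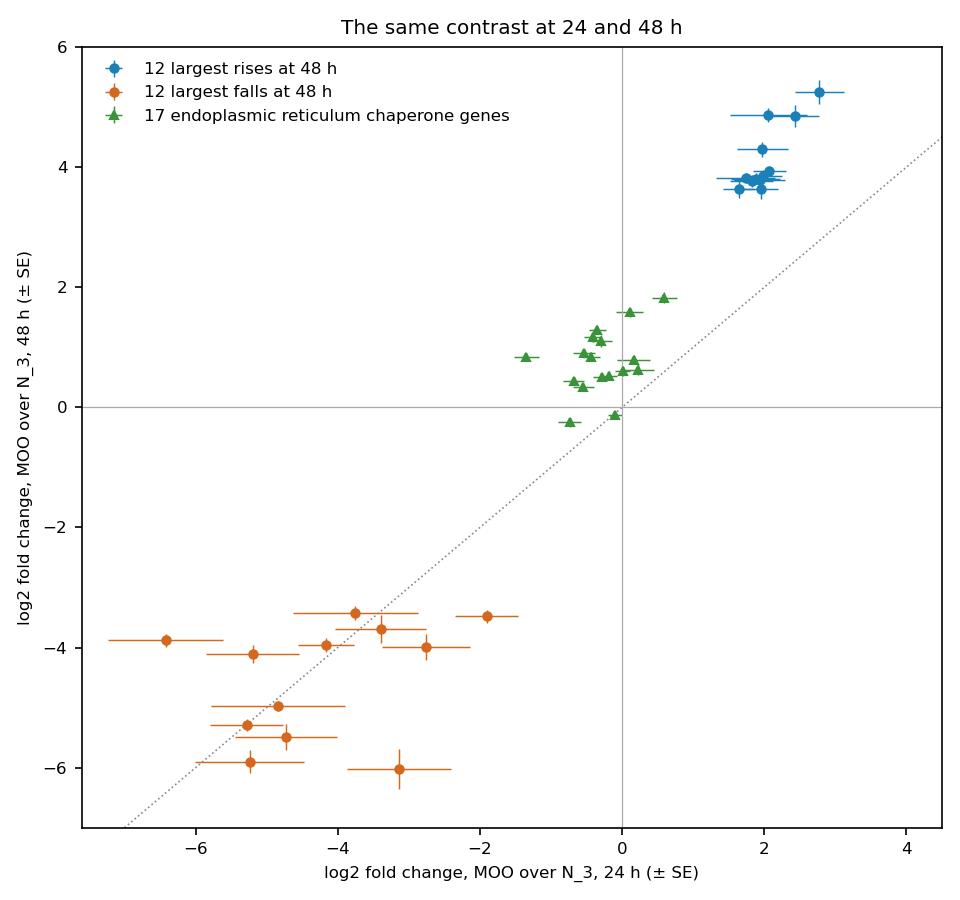
Log2 fold change MOO over N_3 at 24 h (horizontal axis) and at 48 h (vertical axis), with standard errors, for the 12 genes with the largest positive (blue) and the 12 with the largest negative (orange) values at 48 h and 17 endoplasmic reticulum chaperone genes (green triangles). The blue points, which were chosen for their values at 48 h, lie above the dotted line of equal values. The values at 24 h include N_3 replicate 2, which lay between the groups for many genes. Most triangles lie left of 0 at 24 h and above 0 at 48 h.

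Whether the presence of macrozamin in one part and its absence from the other changed the contrast was asked by setting MOO over N_3 against OO over N_2 at 48 h. MOO is OO with macrozamin added, and N_3 is N_2 with macrozamin taken out. The 2 contrasts differed in 5498 genes (35.4%), in 2560 of them upward (16.5%), with a larger value for MOO over N_3, and in 2938 downward (18.9%). Upward were 46.6% of them, and 61.4% with the libraries scaled by their totals alone. All 25 mitosis genes and 28 of 32 replication genes passed upward. TOP2A was at 168, 166 and 179 CPM with OO and 35.7, 30.7 and 32.4 CPM with N_2, so that its log2 fold change was 2.38 there and 3.82 for MOO over N_3, a difference of 1.44 (SE 0.115, adjusted p = 6.05e-09). Metallothioneins passed upward for 5 of 8, with values that were less negative for MOO over N_3. MT1F had -3.69 there and -5.15 for OO over N_2. Cytokines passed downward for 15 of 24 and tRNA synthetases for 19 of 20. The endoplasmic reticulum chaperones passed downward for 16 of 17. HYOU1 was at 1876, 1841 and 1964 CPM with OO and 260.3, 269 and 281 CPM with N_2, a log2 fold change of 2.81 beside 1.29.

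Single genes set N_3 and N_2 apart. C1QL1, a secreted C1q-like protein, was at 57.1, 40.4 and 54.3 CPM with N_2 and 5.07, 7.45 and 4.69 CPM with N_3, while OO and MOO held 7.31 ± 0.615 and 7.496 ± 1.17 CPM (SD, n = 3), and the contrasts differed by 3.19 (SE 0.216, adjusted p = 7.53e-10). C11orf86 (3.01), the epidermal filament protein FLG (2.69) and ZBED6CL (2.67) also differed upward. Downward, the 4 largest were the lipase inhibitor G0S2 (-2.55), CXCL8 (-2.52), IL1A (-2.45) and IL24 (-2.36). IL1A was at 15.1, 13.98 and 16.7 CPM with OO and 40.5, 45.4 and 43.8 CPM with N_2, so that N_3, with 147 CPM on average, had the highest level.

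**Figure D4:**
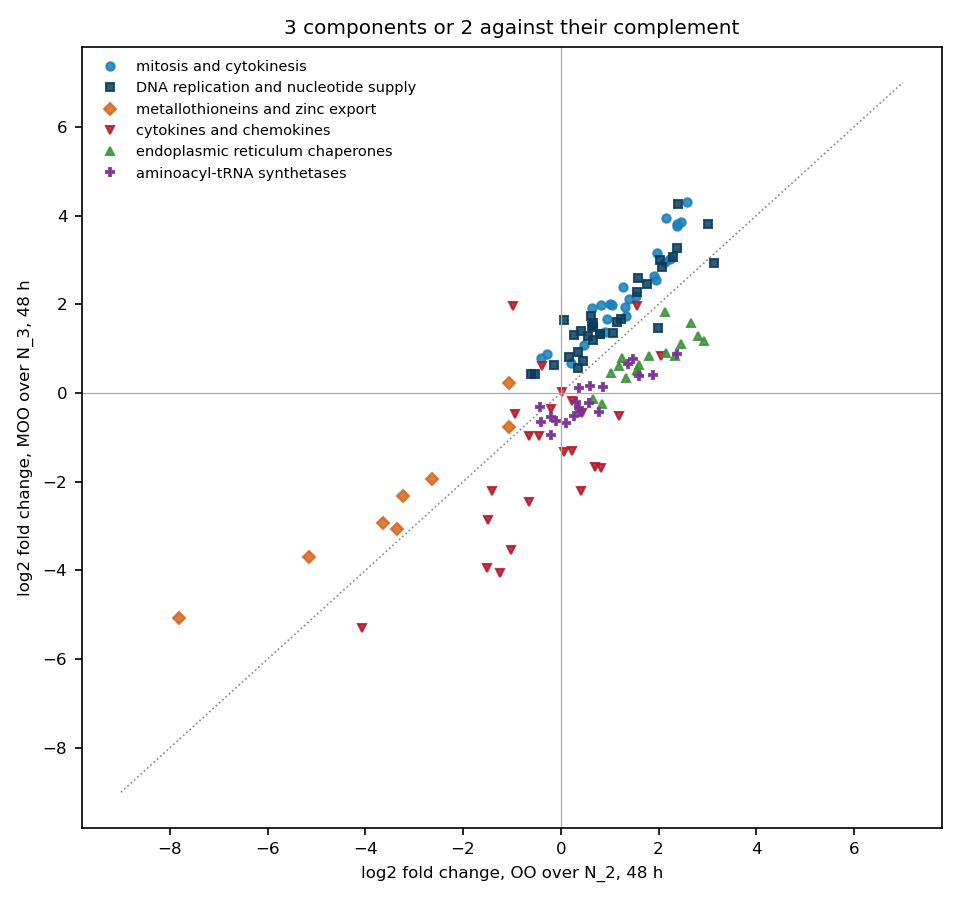
Log2 fold change OO over N_2 (horizontal axis) and MOO over N_3 (vertical axis) at 48 h for the genes of 6 lists, 1 point per gene. The mitosis genes and all but 2 of the replication genes, POLA1 among those 2, lie above the dotted line of equal values, as do the metallothioneins, and the endoplasmic reticulum chaperones and all but 1 of the 20 tRNA synthetases lie under it.

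MOO and N_3 make up CKI between them, and the change with whole CKI against UT was compared with the sum of the changes with its parts on the log2 scale. In 10244 of 15513 genes (66.0%) the change with CKI differed from the sum, upward in 5217 (33.6%) and downward in 5027 (32.4%). All 25 mitosis genes and all 32 replication genes passed upward, with medians of 2.59 and 3.15. TOP2A changed by -0.75 with MOO and -4.57 with N_3, which sum to -5.32, but by -0.82 with CKI. With CKI it was at 231, 218 and 234 CPM, close to the MOO level and far above N_3. The largest upward differences were those of LGALS12, a galectin of fat cells (8.87), FAM111B (7.00), ITGA10 (6.67) and SPC25 of the kinetochore (6.30). The sums of the changes with both parts were -11.22 for LGALS12, -7.78 for FAM111B, -4.72 for ITGA10 and -7.11 for SPC25. A level cannot fall under 0 CPM, and the part of low levels in these differences was not tested.

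Stress genes differed downward. For ATF4 and CHOP targets this held for 20 of 21, for endoplasmic reticulum chaperones for 16 of 17, for metallothioneins for 7 of 8 and for heat shock chaperones for 10 of 14. HSPA6 had the largest difference, -11.24 (SE 0.214, adjusted p = 1.79e-20), and was at 0.903, 1.03 and 0.649 CPM with CKI, under the level of UT although it was above UT with each part. IL24 (-9.31), IL1A (-7.74) and CXCL8 (-7.36) followed. DDIT3 was at 20.3, 18.9 and 18 CPM with CKI and 22.9 ± 1.04 CPM (SD, n = 3) in UT, as against 169 CPM with MOO and 99.1 CPM with N_3. Not every gene deviated from the sum. ANGPTL4 changed by 0.47 with MOO, 3.95 with N_3 and 4.14 with CKI, a difference from the sum of -0.27 (SE 0.162, adjusted p = 0.144), and CYP1A1 by 2.17, 3.65 and 5.68, a difference of -0.13 (SE 0.238, adjusted p = 0.641). These p-values miss the threshold and do not show that the values were equal to the sum.

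**Figure D5:**
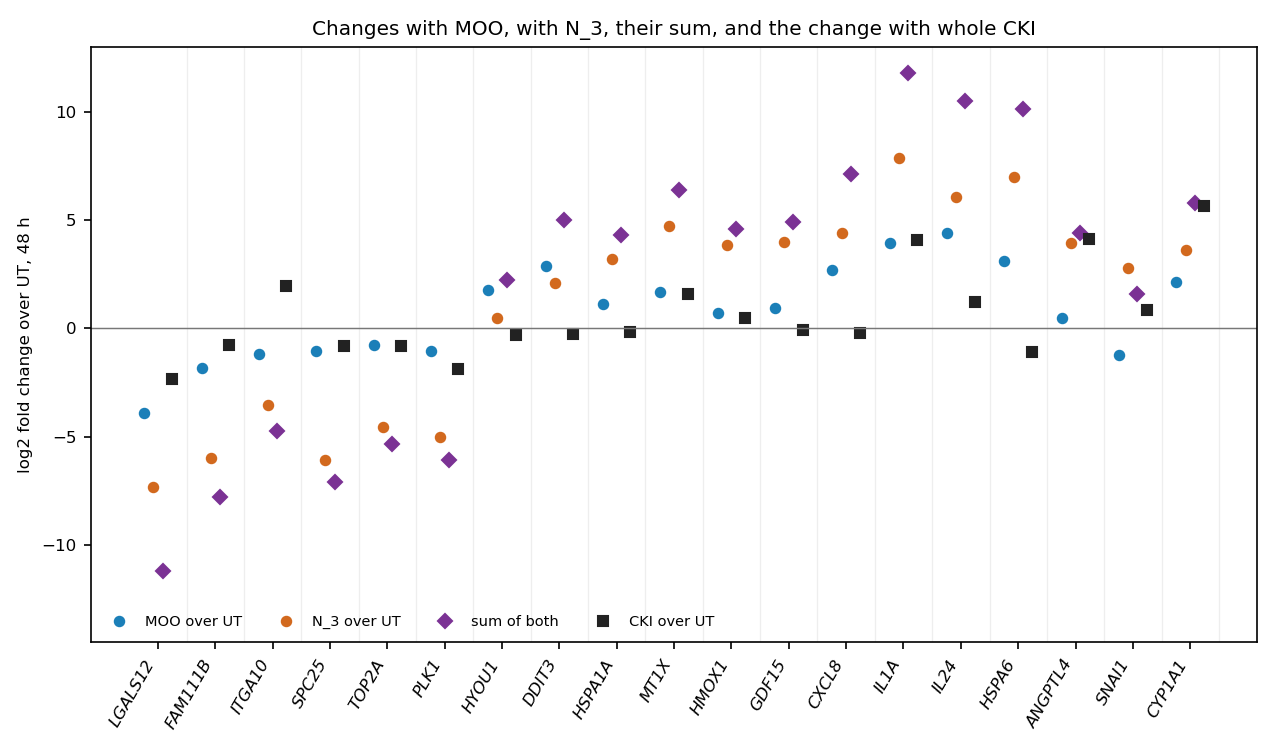
Log2 fold changes over UT at 48 h (vertical axis) with MOO (blue), N_3 (orange) and CKI (black squares), and the sum of MOO and N_3 (purple diamonds), for 19 genes. Purple and black markers are far apart for HSPA6, IL24, IL1A, CXCL8 and LGALS12 and close for ANGPTL4, SNAI1 and CYP1A1.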

How the data were processed

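Strand-specific mRNA libraries, selected with oligo(dT) and sequenced on an Illumina instrument, were made from MDA-MB-231 cells. Per the submitters' processing notes, the authors used FastQC 0.11.4, Trim Galore 0.3.7, STAR 2.5.3a, featureCounts of Subread 1.5.2 and edgeR 3.22.3 with hg19. The annotation version and the strand setting of the counting are not given in the sources used here. The deposited table holds raw counts per gene for 27978 genes, of which 3798 had no count in any library.

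Groups came from the sample titles. Counts were analysed in R 4.3.3 with edgeR 4.0.16 and limma 3.58.1. Genes were filtered with filterByExpr by group, scaled by TMM and tested two-sided with the quasi-likelihood test (glmQLFit, glmQLFTest), with p-values adjusted by Benjamini-Hochberg over all genes tested and a threshold of 0.05. The 18 libraries of batch 1 at a time entered one fit (12 residual degrees of freedom), except for the difference between times, which used the 12 libraries of MOO and N_3. Depth was 20073324 to 26138924 counts at 48 h and 18649291 to 25112905 at 24 h, and precision rests on 3 libraries per group.

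The libraries compared, 30 gene lists (605 memberships, 598 different genes, 4 found under a second name) and the tests were chosen with earlier results of these data known. Named were the 12 genes with the largest positive and the 12 with the largest negative fold change (mean of at least 10 CPM, no overlap), up to 4 members per list with the largest fold change (mean of at least 1 CPM) and members that define a list, the 4 largest per direction for the 3 further contrasts, and the RNAs of 6 proteins that the study measured, together 162 genes. Further members of the lists were named after their values were seen. Values of some genes that the rule or the lists hold are not reported here. Promoter sequences came from RefSeq (GRCh38.p14), matched by symbol. Alternatives were RLE size factors, library totals alone, DESeq2 1.42.0, other filters, a replicate block, leaving out each library, other sets of libraries in the fit and a required absolute log2 fold change of at least 1. The fit was tested on simulated data.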

Additional observations from a re-analysis of the deposited data

Results flagged for a closer look

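The contrast MOO over N_3 differed between 48 and 24 h in 294 genes, by a test of the difference itself in 12 libraries. The largest values, 48 h less 24 h on the log2 scale, were 2.98 for SPC25, 2.66 for RAD51AP1, 2.46 for DMBT1 and 2.42 for KISS1, and -1.59 for ANGPTL4, -1.37 for PLCXD1, -1.33 for CDKN1A and -1.29 for EBP.

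MOO over N_3 also differed from OO over N_2 at 48 h, tested as the difference between the contrasts in the same fit, in 5498 genes. Differences on the log2 scale were 3.19 for C1QL1, 3.01 for C11orf86, 2.69 for FLG and 2.67 for ZBED6CL, and -2.55 for G0S2, -2.52 for CXCL8, -2.45 for IL1A and -2.36 for IL24.

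The change with whole CKI differed from the sum of the changes with MOO and N_3, again by a test of that difference, in 10244 genes. It was 8.87 for LGALS12, 7.00 for FAM111B, 6.67 for ITGA10 and 6.30 for SPC25, and -11.24 for HSPA6, -9.31 for IL24, -7.74 for IL1A and -7.36 for CXCL8. No group held enough libraries for a test of single libraries that stand apart.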

How the results depend on the processing

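Counts of DE genes for the 6 comparisons other than the difference between times stayed within 1.5 times their value under RLE size factors, library totals alone, DESeq2, other filters, the replicate block, fewer libraries in the fit and leaving out each library. For MOO against N_3 the latter gave 8870 to 9831 genes at 48 h and 3913 to 6419 at 24 h. Requiring a difference of 1 or more on the log2 scale left 2609 genes for MOO against N_3, 1712 for MOO against UT, 4119 for N_3 against UT, 2009 for MOO against N_3 at 24 h, 158 for the difference between times, 1193 for the difference from OO over N_2 and 4912 for the difference from the sum. The difference between times, 294 genes, was the least stable: 529 with library totals alone, 939 with DESeq2, 1011 with all libraries of batch 1 in 1 fit, and 73 to 1548 with each library left out. The cause was not tested.

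Replicate numbers are shared by the groups. The deviations of same-numbered MOO and N_3 libraries had correlations of 0.182, 0.337 and 0.0213 at 48 h and of 0.625, -0.31 and -0.425 at 24 h. With 3 libraries per group and N_3 replicate 2 standing apart, these values cannot decide whether same-numbered libraries were paired. With the replicate block, 9543 genes were DE for MOO against N_3 at 48 h and 121 for the difference between times.

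Of 156 named genes that were DE at 48 h, 151 kept their call and direction under every alternative that was applied to single genes. The cutoff of 1 on the log2 scale was not among these, and named genes such as ACTB and ATF4 differed by less. Many of the 156 were named for large fold changes in the same libraries, so this count does not stand for all genes. Values that changed sign belonged to genes that were not DE: CTNNB1 with -0.074 to 0.25 with each library left out, negative without N_3 replicate 1 (-0.014) or 3, JAK1 with 0.080 with library totals alone, and MYC with -0.039 to 0.13 with each library left out, negative without N_3 replicate 2 or MOO replicate 2 (-0.038). With library totals alone some list counts moved by over 1.5 times: higher in MOO were then 6 apoptosis regulators, 4 NRF2 targets, 5 cholesterol genes, 1 heat shock chaperone, 1 NF-kB gene, 5 TGF-beta genes and 9 MYC and ribosome biogenesis genes, and lower were 0 endoplasmic reticulum chaperones, 1 liver X receptor or fatty acid gene, 6 receptor and JAK-STAT genes and 2 MYC and ribosome biogenesis genes. RLE size factors or DESeq2 gave 2 lower endoplasmic reticulum chaperones. With only the libraries of MOO and N_3 in the fit, higher were 1 PPAR target, 2 respiratory chain genes and 3 lysosome genes, and lower were 0 endoplasmic reticulum chaperones, 2 liver X receptor or fatty acid genes, 1 actin gene and 2 MYC and ribosome biogenesis genes. List counts without the libraries that stand apart were computed for the 24 h contrast and the 3 further contrasts after the data were seen. Depth limits genes near 1 CPM, such as S100P or GADD45G with MOO, whose fold changes depend on about 20 counts per library.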

Other observations

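Further gene families, chosen after their values were seen, differed between MOO and N_3 at 48 h. Of all genes tested, 31.6% were higher in MOO and 30.6% lower. Pregnancy-specific glycoproteins, secreted members of the CEA family, were higher in MOO for 10 of 11 genes tested, with a median log2 fold change of 2.42. PSG1 was at 61.5, 60.5 and 64.04 CPM with MOO and 9.17, 8.26 and 9.69 CPM with N_3, beside 10.2 ± 0.589 CPM (SD, n = 3) in UT. These genes are near-identical copies, so reads may be split among them. Fanconi anaemia genes, which repair DNA crosslinks, were higher for 7 of 10, with FANCA (2.53) and FANCD2 (1.90) among them, and BRCA1 had a log2 fold change of 2.05 (SE 0.107, adjusted p = 2.87e-13). The cell cycle factor FOXM1 (2.45) and cyclin A2, CCNA2 (3.50), were higher in MOO.

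Histone genes were lower in MOO for 20 of 32 and higher for 2, with a median of -0.885. HIST1H1C was at 38.5, 44.3 and 43.6 CPM with MOO and 258, 177 and 286 CPM with N_3. Most histone mRNAs lack a poly(A) tail, and the libraries were selected for poly(A). Cytosolic ribosomal proteins were lower for 57 of 81 (median -0.32) and proteasome subunits for 19 of 38 (median -0.171), beside 30.6% of all genes. Tubulins were higher for 11 of 24, beside 31.6% of all genes. PTGS2, or COX-2, was lower in MOO, at 6.19, 6.39 and 7.07 CPM with MOO and 55.4, 45.2 and 28.2 CPM with N_3, and the prostaglandin E synthase PTGES had a log2 fold change of -2.26. The mitochondrial superoxide dismutase SOD2 (-2.06) and the complement component C3 (-2.01) were lower as well, and TXNIP, an inhibitor of thioredoxin, was higher (2.48). Mitochondrial ribosomal RNAs, RNR1 (-1.10) and RNR2 (-1.27), were lower in MOO.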
